A study of Mus musculus with 12 samples.

Results

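The intercalated disc and gap junction genes described here were Gja1, Gja5, Cdh2, Vcl, Dsg2, Dsc2, Dsp, Pkp2, Jup and Tjp1. They were taken by name, as the rows of the deposited expression table whose NCBI Gene identifiers correspond to these mouse symbols, and not by a threshold on their values. They are 10 of the 18079 genes in the table. All 10 passed the filter on low values and were among the 11664 genes tested. Left ventricular muscle of 12 C57BL/6 mice was sequenced, 1 library per mouse, with 3 mice in each of 4 groups. DMSO+AB mice had aortic banding (AB), a tie around the descending aorta that loads the left ventricle with pressure, and received the solvent DMSO. Hispidulin+AB mice had the same surgery and received the plant flavone hispidulin at 20 mg/kg/day by intraperitoneal injection, and the DMSO+Sham and Hispidulin+Sham mice had sham surgery with the same treatments. All mice were male and 8 weeks old at surgery, were injected daily from 1 day ahead of it, and were 12 weeks old when the ventricle was taken 4 weeks later.

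The intercalated disc joins heart muscle cells end to end. Adherens junctions, built on N-cadherin, tie the actin of neighbouring cells together, and desmosomes, built on desmogleins and desmocollins, tie their desmin filaments together. Gap junctions are plates of connexin channels that carry the electrical impulse from cell to cell. The working ventricle uses mainly connexin 43, and connexin 40 is known from the atria, the conduction system and the endothelium of arteries. Inherited mutations of several desmosomal genes cause arrhythmogenic cardiomyopathy, and loss or redistribution of connexin 43 is a known feature of the overloaded and failing heart.

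Expression was given by the authors as FPKM, a read count scaled by the length of the transcript and by the size of the library, so that levels can be compared between genes. Groups were compared with limma, after 1 was added to each FPKM and log2 was taken, with 1 mean per group over the 12 mice and Benjamini-Hochberg adjustment over all genes tested, and a gene was called at an adjusted p under 0.05. Differences are therefore on the log2(FPKM + 1) scale, which understates the change of low genes. Depth is not known from FPKM, and the values carry no counting interval. In left ventricular muscle, a lower level in fewer muscle cells and a lower level per cell cannot be told apart.

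For the connexins and for vinculin, the 250 bases that precede the start of transcription in the RefSeq annotation are printed, since Gja1 and Gja5 belong to one family and had levels far apart, and a CArG box, the motif of serum response factor, was found in Vcl. The promoter table held 6 of the 10 genes, and Vcl was the only one of those 6 with a CArG box. The capitals mark matches on either strand to an AP-1 site (TGANTCA, in Gja1), a GC box (GGGCGG, in Gja5 and Vcl) or a CArG box (the first capitals in Vcl).
Gja1, chr10:56377050-56377299, GRCm38.p6, plus strand: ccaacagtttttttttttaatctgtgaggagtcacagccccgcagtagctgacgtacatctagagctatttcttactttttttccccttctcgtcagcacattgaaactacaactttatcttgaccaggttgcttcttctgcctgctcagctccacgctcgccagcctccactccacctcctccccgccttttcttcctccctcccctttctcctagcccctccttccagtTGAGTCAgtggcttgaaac
Gja5, chr3:97032152-97032401, GRCm38.p6, plus strand: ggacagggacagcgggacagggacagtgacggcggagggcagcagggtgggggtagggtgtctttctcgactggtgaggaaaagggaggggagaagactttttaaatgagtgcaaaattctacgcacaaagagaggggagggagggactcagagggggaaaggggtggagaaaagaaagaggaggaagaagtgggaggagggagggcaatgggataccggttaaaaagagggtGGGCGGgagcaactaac
Vcl, chr14:20929148-20929397, GRCm38.p6, plus strand: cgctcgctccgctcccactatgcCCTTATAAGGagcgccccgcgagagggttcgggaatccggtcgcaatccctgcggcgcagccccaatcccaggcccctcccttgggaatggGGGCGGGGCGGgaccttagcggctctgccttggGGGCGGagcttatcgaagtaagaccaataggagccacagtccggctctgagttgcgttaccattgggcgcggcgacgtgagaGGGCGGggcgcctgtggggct

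The Gja1 window held 1 AP-1 match, which began 19 bases ahead of the start. A match to this motif was present in 6.75% of 32851 mouse promoters of the same length. The Vcl window held 1 CArG box, present in 1.47% of promoters, and 4 GC boxes, of which a pair overlapped; a GC box was present in 32.7%. The Gja5 window held 1 GC box. A TATA box (TATAAA), present in 12.4% of promoters, was not matched in these 3 windows. These matches describe letters and were not tested for any function.

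The levels of the 10 genes spanned a wide range. Desmoplakin (Dsp), which links the desmosome to desmin, was the highest at 133.6 ± 8.87 FPKM (SD over 12 mice). Plakoglobin (Jup) followed at 96.2 ± 12.2 FPKM and plakophilin 2 (Pkp2) at 83.1 ± 11.7 FPKM, both plaque proteins of the desmosome. N-cadherin (Cdh2) lay at 66.5 ± 6.42, connexin 43 (Gja1) at 61.8 ± 17.8 and vinculin (Vcl) at 35.4 ± 6.12 FPKM. The scaffold ZO-1 (Tjp1) lay at 14.9 ± 1.68, desmoglein 2 (Dsg2) at 14.6 ± 3.54, desmocollin 2 (Dsc2) at 6.88 ± 1.38 and connexin 40 (Gja5) at 2.10 ± 0.317 FPKM. Dsc2 ranked 9 and Gja5 ranked 10 in each of the 12 mice. Neighbours higher in the order exchanged places between mice: Jup ranked between 1 and 3, Pkp2 between 2 and 5 and Gja1 between 2 and 6, and Tjp1 and Dsg2 shared ranks 7 and 8. The 10 genes together summed to between 477.8 and 581.6 FPKM per mouse, which was 0.0843% to 0.105% of the total.

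**Figure D1:**
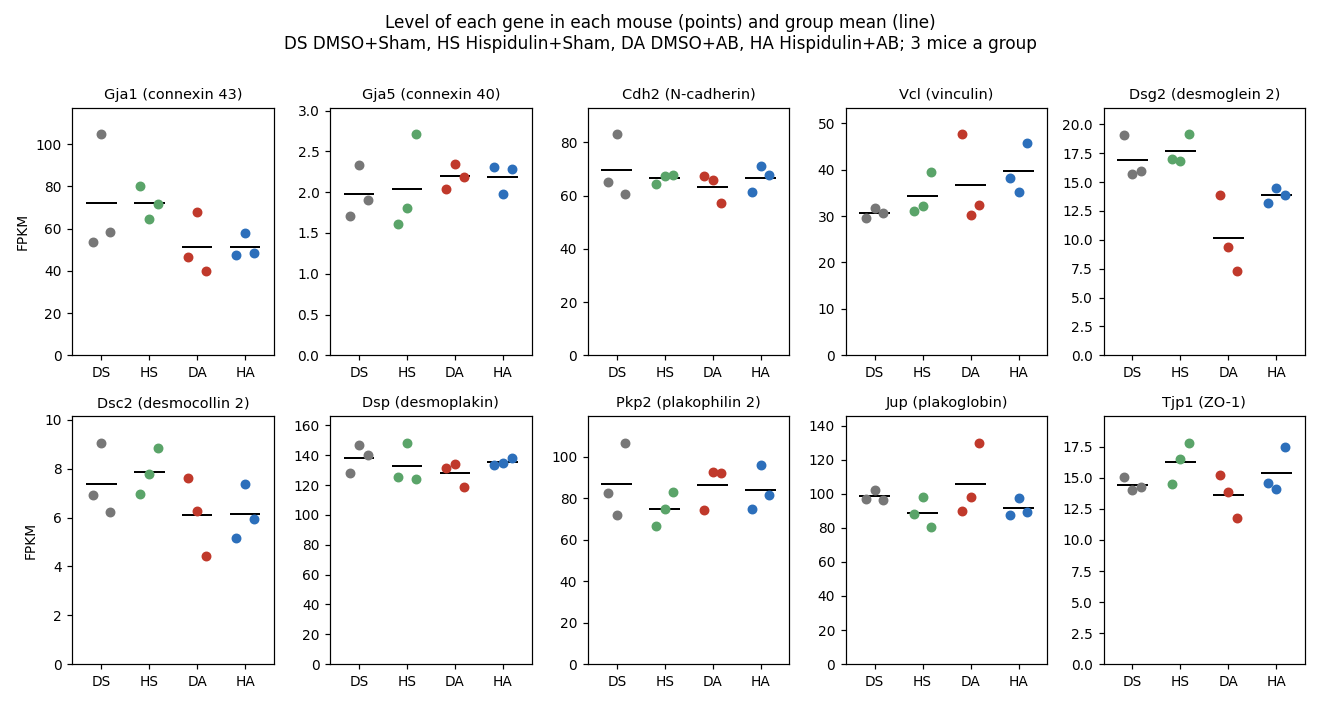
FPKM of each of the 10 genes (y axis, from 0) in each mouse, with 1 panel per gene and the 4 groups along the x axis; points are mice in replicate order and the line is the mean of 3. Dsg2 lay at or above 15.68 FPKM in all 6 sham mice and at or below 14.45 FPKM in all 6 banded mice, and most other genes overlapped between groups.

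The library of DMSO+AB mouse 3 stood apart for several of these genes. It held the lowest value of Gja1, Cdh2, Dsp, Dsg2, Dsc2 and Tjp1 among the 12 mice, and the highest of Jup. DMSO+Sham mouse 2 held the highest Gja1, Cdh2 and Dsc2, and Hispidulin+Sham mouse 3 the highest Gja5, Dsg2 and Tjp1. In DMSO+AB mouse 3 genes with long transcripts (over 4064 bases) were 0.17 lower on the log2 scale, in the median, than genes with short ones (up to 2344 bases), relative to the mean of the mice; in the other 11 mice this difference lay between -0.12 and 0.11. The ventricular markers Myl2 and Myl3 were high in every library, at 11178 FPKM or above and 6602 FPKM or above. Summed atrial markers ranged from 10.51 to 795.5 FPKM and were highest in Hispidulin+Sham mouse 3, DMSO+AB mouse 2 and Hispidulin+AB mouse 3; the atrial light chain Myl7 was 333.1, 67.5 and 42.3 FPKM there and at most 15.0 FPKM in the other 9.

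Connexin 43 was the gene with the widest spread between mice relative to its mean. Gja1 was 53.6, 104.7 and 58.4 FPKM in DMSO+Sham mice 1, 2 and 3, the order in which values are given throughout, and 46.7, 67.9 and 39.9 FPKM in DMSO+AB mice. It was 79.9, 64.8 and 71.6 FPKM in Hispidulin+Sham mice and 47.6, 58.2 and 48.2 FPKM in Hispidulin+AB mice. The DMSO groups overlapped, with DMSO+Sham mouse 2 far above the rest, and with hispidulin each banded mouse lay below each sham mouse.

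The group means of Gja1 were 28.7% lower after banding with DMSO (51.5 ± 14.6 against 72.2 ± 28.2 FPKM, n = 3 each) and 28.8% lower with hispidulin (51.3 ± 5.91 against 72.1 ± 7.60 FPKM). On the log2 scale the differences were -0.45 (SE 0.24, limma adjusted p = 0.316) and -0.48 (SE 0.24, adjusted p = 0.709), and neither passed the test. The DMSO difference was -0.15 without DMSO+Sham mouse 2 and -0.29 without DMSO+AB mouse 3, and ranged from -0.66 to -0.15 with 1 library left out, while the hispidulin difference ranged from -0.57 to -0.41. With library weights, which let limma count a library that departs from its group for less, the DMSO difference was -0.072. The exact two-sided permutation test gave p = 0.4 and p = 0.1, and 0.1 is the smallest p that 3 mice against 3 allow. Within the series of animal numbers (5 and 6 by their first digit) the DMSO difference was -1.37 (1 mouse against 1) and -0.051 (2 against 1), and the hispidulin difference was -0.57 and -0.44. DMSO+Sham mouse 1 has animal number 1, belongs to neither series and is left out of such splits. Series 6 held mice 1 and 2 of each banded group but only mouse 3 of each sham group. Series and banding were therefore partly confounded.

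Connexin 40 was the lowest of the 10 in level. Gja5 was 1.71, 2.33 and 1.91 FPKM in DMSO+Sham, 2.04, 2.35 and 2.19 in DMSO+AB, 1.61, 1.81 and 2.71 in Hispidulin+Sham and 2.31, 1.98 and 2.28 FPKM in Hispidulin+AB mice. All 4 groups overlapped. The difference after banding was 0.10 (SE 0.14, limma adjusted p = 0.725) with DMSO and 0.083 (SE 0.14, adjusted p = 0.956) with hispidulin. The highest Gja5 value belonged to the library with the highest atrial markers, Hispidulin+Sham mouse 3, whose part in the level was not tested; without the 3 libraries highest in Myl7 the hispidulin difference was 0.21 and still not called. Of the 50-base stretches of the Gja5 transcript, 24.2% also occur in other genes (Gpr89 on the other strand and Zfp697), and the strandedness of the libraries is not given in the sources used here, so this level is uncertain. Gpr89 ranged from 7.35 to 9.31 FPKM and Zfp697 from 2.69 to 13.4 FPKM.

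The balance of the connexins was described by the ratio of Gja1 to Gja5. It was 31.3, 44.9 and 30.6 in DMSO+Sham mice and 22.9, 28.9 and 18.2 in DMSO+AB mice, so that each banded mouse lay below each sham mouse (exact permutation p = 0.1, the smallest possible). It was 49.7, 35.8 and 26.4 in Hispidulin+Sham mice and 20.6, 29.4 and 21.2 in Hispidulin+AB mice, which overlapped (exact permutation p = 0.2). The mean ratio after banding was 23.3 ± 5.36 with DMSO and 23.7 ± 4.91 with hispidulin (n = 3 each).

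N-cadherin, the adhesion receptor of the adherens junction, did not pass the test in either arm. Cdh2 was 65.0, 83.1 and 60.7 FPKM in DMSO+Sham, 67.2, 65.8 and 57.2 in DMSO+AB, 64.5, 67.2 and 67.8 in Hispidulin+Sham and 61.2, 71.1 and 67.6 FPKM in Hispidulin+AB mice. The groups overlapped throughout. The difference after banding was -0.12 (95% CI -0.38 to 0.14, limma adjusted p = 0.603) with DMSO and 0.00064 (95% CI -0.26 to 0.26, adjusted p = 1.00) with hispidulin.

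Vinculin couples cadherin complexes, and integrin complexes elsewhere in the cell, to actin. Vcl was 29.6, 31.8 and 30.7 FPKM in DMSO+Sham and 47.6, 30.3 and 32.4 FPKM in DMSO+AB mice, and 31.2, 32.2 and 39.6 FPKM in Hispidulin+Sham and 38.1, 35.2 and 45.7 FPKM in Hispidulin+AB mice. The 3 DMSO+Sham mice were close together, DMSO+AB mouse 1 was the highest of all, and sham and banded mice overlapped in both arms. The differences after banding were 0.23 (SE 0.16, limma adjusted p = 0.473) and 0.20 (SE 0.16, adjusted p = 0.880). The DMSO difference was 0.029 without DMSO+AB mouse 1 and 0.35 without DMSO+AB mouse 2, and the hispidulin difference was 0.099 without Hispidulin+AB mouse 3 and 0.31 without Hispidulin+Sham mouse 3. Of the Vcl transcript, 39.2% of the 50-base stretches lie over Ap3m1 on the other strand, so this level is uncertain as well. Ap3m1 ranged from 9.45 to 16.2 FPKM and differed by -0.30 (adjusted p = 0.257) after banding with DMSO.

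Desmoglein 2, a desmosomal cadherin and the main desmoglein of heart muscle, was the only one of the 10 genes that passed the test. Dsg2 was 19.1, 15.7 and 16.0 FPKM in DMSO+Sham mice and 13.9, 9.41 and 7.28 FPKM in DMSO+AB mice. Each banded mouse lay below each sham mouse, and the banded mice differed among themselves by more than the sham mice did. Dsg2 was 17.0, 16.8 and 19.1 FPKM in Hispidulin+Sham mice and 13.2, 14.5 and 13.8 FPKM in Hispidulin+AB mice, again without overlap.

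Dsg2 fell by 39.7% after banding in DMSO mice, from 16.9 ± 1.87 to 10.2 ± 3.35 FPKM (SD, n = 3 each). The log2 difference was -0.72 (SE 0.17, 95% CI -1.09 to -0.34, limma adjusted p = 0.0373), and the exact permutation test gave p = 0.1, the smallest possible. With hispidulin the mean was 21.6% lower (13.8 ± 0.620 against 17.6 ± 1.29 FPKM), a difference of -0.33 (95% CI -0.71 to 0.050, limma adjusted p = 0.734) that did not pass. The difference between these effects, which share no mice, was 0.39 (95% CI -0.15 to 0.92, limma adjusted p = 1.00), so the size of the fall was not shown to differ between the drug arms. The difference between the effects was 0.19 without DMSO+AB mouse 3 and 0.61 without DMSO+AB mouse 1.

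The Dsg2 call in DMSO mice was held by 10 of 25 alternative settings, and the difference was negative in all 25, between -0.94 and -0.52. Without DMSO+AB mouse 3, which had the lowest value, it was -0.52 (adjusted p = 0.0988), and without DMSO+AB mouse 1 it was -0.94 (adjusted p = 0.0019). The call was lost in 10 of the 12 fits that left out 1 library, all but those without DMSO+Sham mouse 2 or DMSO+AB mouse 1. With the trend on transcript length of each library removed the difference was -0.67 (limma adjusted p = 0.0315), and within the series of animal numbers it was -1.01 (1 mouse against 1) and -0.45 (2 against 1). DMSO+Sham mouse 1, the highest of its group in Dsg2, was in neither series. Of the 50-base stretches of the Dsg2 transcript, 5.07% occur in other genes.

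**Figure D2:**
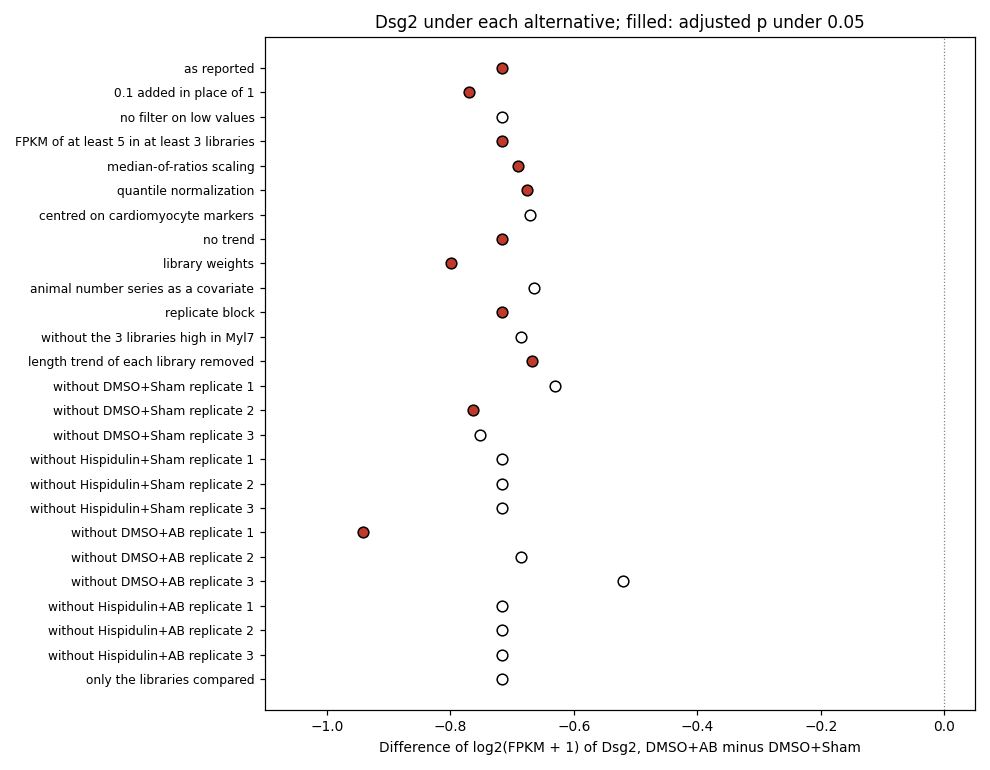
Difference of log2(FPKM + 1) of Dsg2 between DMSO+AB and DMSO+Sham (x axis) as reported and under each of 25 alternatives (y axis); filled points have an adjusted p under 0.05. All points lie below 0, between -0.94 and -0.52, and 10 of the 25 alternatives are filled.

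Of the markers of other cells, some fibroblast genes rose with banding in DMSO mice. The summed fibroblast markers were 369 to 456 FPKM in DMSO+Sham and 416 to 940 FPKM in DMSO+AB mice, and 3 of 8 were called, all higher (Postn, Col1a1 and Col1a2), beside 5.21% of all genes tested. At an unadjusted p under 0.05 there were 6 of the 8, beside 20.4% of all genes. The summed endothelial markers were 375 to 396 and 416 to 425 FPKM, with 0 of 10 called by limma and 0 at an unadjusted p under 0.05. By limma 0 were also called of 8 macrophage, 8 smooth muscle and pericyte, 9 conduction and 6 arterial endothelial markers, with 0, 3, 1 and 0 at an unadjusted p under 0.05. The summed cardiomyocyte markers overlapped (42445 to 61350 and 51374 to 56007 FPKM), and 2 of 11 were called, both lower (Ryr2 and Pln). The 11 did not move together: 7 differed downward and 4 upward, between -0.62 and 0.78. Among the 4 were Mybpc3 and Tnnc1, higher in each DMSO+AB mouse than in each DMSO+Sham mouse. At an unadjusted p under 0.05 there were 7 of the 11. The part of these marker values in the Dsg2 value was not tested. With each library centred on its cardiomyocyte markers, Dsg2 differed by -0.67 with an adjusted p of 0.0710.

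Desmocollin 2 is the partner cadherin of desmoglein 2. Dsc2 was 6.91, 9.05 and 6.22 FPKM in DMSO+Sham and 7.63, 6.26 and 4.42 in DMSO+AB mice, and 6.96, 7.77 and 8.84 in Hispidulin+Sham and 5.17, 7.36 and 5.95 FPKM in Hispidulin+AB mice. The groups overlapped in both arms. The difference after banding was -0.25 (SE 0.19, limma adjusted p = 0.483) with DMSO and -0.31 (SE 0.19, adjusted p = 0.784) with hispidulin, neither of which passed. With DMSO it was -0.070 without DMSO+AB mouse 3, -0.12 without DMSO+Sham mouse 2 and -0.41 without DMSO+AB mouse 1.

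The ratio of the desmosomal cadherins, Dsg2 over Dsc2, was 2.76, 1.73 and 2.56 in DMSO+Sham mice, 1.82, 1.50 and 1.65 in DMSO+AB mice, 2.45, 2.16 and 2.16 in Hispidulin+Sham mice and 2.56, 1.96 and 2.33 in Hispidulin+AB mice. Each DMSO+AB mouse lay below each Hispidulin+AB mouse (1.66 ± 0.156 against 2.28 ± 0.298, exact permutation p = 0.1, the smallest possible), whereas sham and banded mice overlapped both with DMSO (exact permutation p = 0.2) and with hispidulin (exact permutation p = 1). Dsg2 relative to desmoplakin was lower after banding in each arm, at 0.0789 ± 0.0234 against 0.123 ± 0.0225 with DMSO and 0.102 ± 0.0046 against 0.135 ± 0.0205 with hispidulin, without overlap (exact permutation p = 0.1 each). Dsg2 relative to Cdh2 was 0.159 ± 0.0417 against 0.248 ± 0.0537 with DMSO, with overlap (exact permutation p = 0.2), and 0.208 ± 0.00686 against 0.265 ± 0.0161 with hispidulin, without overlap (exact permutation p = 0.1). In all, 8 ratios of members were taken and 32 comparisons of groups were made on them, of which 6 showed no overlap, and the ratios were examined after the values of Dsg2 were known.

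None of the 3 plaque genes of the desmosome passed the test. Dsp was 128.1, 147.0 and 140.1 FPKM in DMSO+Sham and 131.3, 134.2 and 119.0 in DMSO+AB mice, and 125.5, 148.1 and 123.8 in Hispidulin+Sham and 133.4, 134.4 and 138.2 FPKM in Hispidulin+AB mice. These groups overlapped, and Dsp had the smallest spread of the 10 relative to its mean. The differences after banding were -0.11 (95% CI -0.32 to 0.099, limma adjusted p = 0.558) and 0.035 (95% CI -0.17 to 0.24, adjusted p = 0.974).

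Plakophilin 2 and plakoglobin bind the tails of the desmosomal cadherins. Pkp2 was 82.5, 71.9 and 106.6 FPKM in DMSO+Sham, 74.5, 92.7 and 92.1 in DMSO+AB, 66.7, 74.9 and 83.1 in Hispidulin+Sham and 74.8, 96.1 and 81.7 FPKM in Hispidulin+AB mice. The differences after banding were 0.0028 (SE 0.16, limma adjusted p = 0.993) and 0.16 (SE 0.16, adjusted p = 0.906), and the groups overlapped. Jup was 97.1, 102.2 and 96.4 FPKM in DMSO+Sham, 89.9, 98.2 and 129.8 in DMSO+AB, 88.1, 98.2 and 80.5 in Hispidulin+Sham and 87.4, 97.4 and 89.4 FPKM in Hispidulin+AB mice. The Jup groups overlapped, and DMSO+AB mouse 3 held the highest value, above its own Dsp. The differences of Jup after banding were 0.085 (SE 0.13, limma adjusted p = 0.748) and 0.042 (SE 0.13, adjusted p = 0.974).

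ZO-1 is a cytoplasmic scaffold that binds connexin 43 at the edge of gap junctions. Tjp1 was 15.1, 14.0 and 14.2 FPKM in DMSO+Sham, 15.3, 13.9 and 11.8 in DMSO+AB, 14.5, 16.6 and 17.8 in Hispidulin+Sham and 14.6, 14.1 and 17.5 FPKM in Hispidulin+AB mice. The groups overlapped. The differences after banding were -0.083 (SE 0.12, limma adjusted p = 0.740) and -0.077 (SE 0.12, adjusted p = 0.954).

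In all, banding in DMSO mice gave 1 call among the 10 genes, against 5.21% of all genes tested (608 genes). The latter count also leaned on single mice: it was 91 without DMSO+Sham mouse 1, 97 without DMSO+AB mouse 2, 191 without DMSO+AB mouse 3, 1053 without DMSO+Sham mouse 2, 954 without DMSO+AB mouse 1, and 364 to 494 without any one of the others. With only the 6 libraries compared it was 11. Groups that do not overlap were found for 1 of the 10 (Dsg2), against 17.9% of all genes. The median difference of the 10 was -0.096, beside -0.035 over all genes tested. Banding in hispidulin mice gave 0 calls by limma, with 0 at an unadjusted p under 0.05, and over all genes 0% were called (847 at an unadjusted p under 0.05). A fit blocked on replicate number called 17 genes there, one with library weights 209 and one with only the libraries compared 49, none of them among the 10. There 2 of the 10 did not overlap (Gja1 and Dsg2, both lower), beside 20.9% of all genes.

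**Figure D3:**
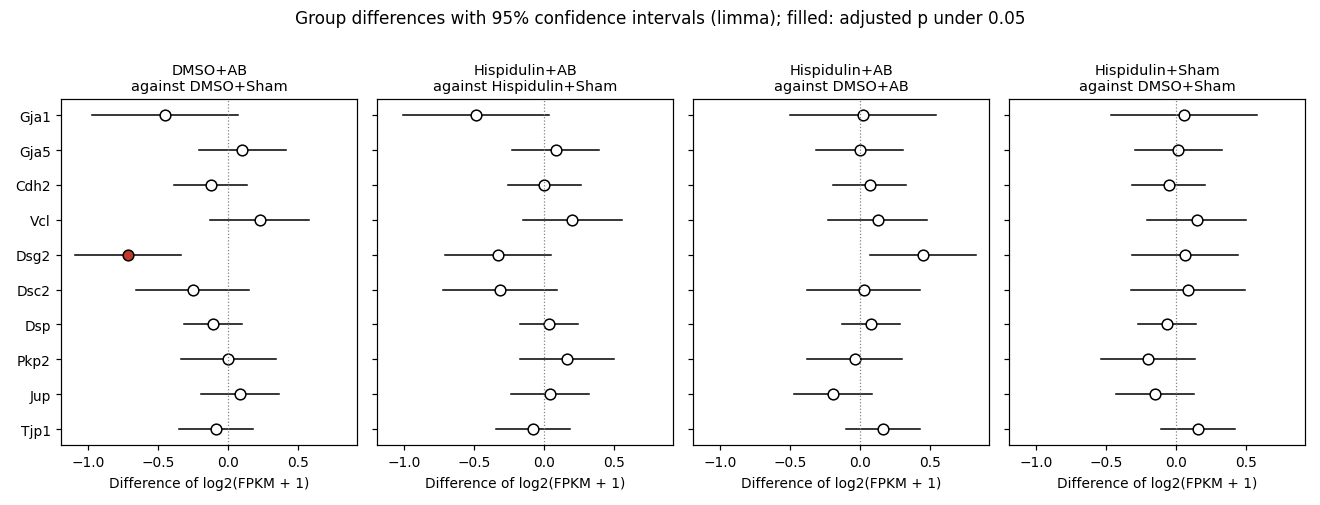
Difference of log2(FPKM + 1) for each of the 10 genes (x axis, points) with its 95% confidence interval (lines) in the 4 comparisons; filled points have an adjusted p under 0.05. Dsg2 in DMSO+AB against DMSO+Sham is the filled point, at -0.72, and Gja1 lies at -0.45 and -0.48 in both banding comparisons with intervals that include 0.

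The banding comparisons share no mice, so a comparison of all 6 banded with all 6 sham mice was added after their values were seen. There Dsg2 was the 1 call of the 10, with a difference of -0.52 (SE 0.12, 95% CI -0.79 to -0.25, limma adjusted p = 0.0265), and over all genes 7.39% were called (862 genes). With 1 library left out the count over all genes ranged from 376 (without Hispidulin+AB mouse 3) to 1220 (without DMSO+Sham mouse 2). All 6 banded mice (12.0 ± 2.94 FPKM) lay below all 6 sham mice (17.3 ± 1.50 FPKM), a separation found in 4.96% of all genes and in none of the other 9. Gja1 differed by -0.47 (SE 0.17, 95% CI -0.84 to -0.097) and did not pass the adjustment (limma adjusted p = 0.119). Dsc2 differed by -0.28 (limma adjusted p = 0.222) and Vcl by 0.21 (adjusted p = 0.293), or 0.12 without DMSO+AB mouse 1. The Dsg2 call was kept in 16 of 24 alternatives and lost, among others, without the 3 libraries highest in Myl7 (-0.48, adjusted p = 0.235). It was kept in 5 of the 12 fits that left out 1 library, and in the other 7 the adjusted p was 0.0571 to 0.0692.

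Hispidulin in banded mice was compared with DMSO in banded mice, the contrast that asks whether the drug changed the overloaded ventricle. Here 0 of the 10 genes were called by limma, and 1 had an unadjusted p under 0.05. Over all genes 0% were called, with 362 at an unadjusted p under 0.05. That gene was Dsg2, which was 35.9% higher in the mean with hispidulin (13.8 ± 0.620 against 10.2 ± 3.35 FPKM, n = 3 each). The log2 difference was 0.45 (95% CI 0.071 to 0.83, limma p = 0.0238, adjusted p = 0.996), the groups overlapped, and the exact permutation test gave p = 0.3. DMSO+AB mouse 1, at 13.9 FPKM, lay within the range of the hispidulin mice. Without DMSO+AB mouse 3 the difference was 0.25, and within the series of animal numbers it was 0.84 (1 mouse against 1) and 0.25 (2 against 2). The DMSO+AB mice enter both this value and the fall of Dsg2 with banding.

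None of the other 9 genes reached an unadjusted p under 0.05 between the banded groups. Jup was 13.7% lower with hispidulin (-0.19, 95% CI -0.47 to 0.086) and Tjp1 12.9% higher (0.16, 95% CI -0.10 to 0.43). Gja1 differed by 0.025 (95% CI -0.50 to 0.55), Gja5 by -0.0020 (95% CI -0.31 to 0.31), Cdh2 by 0.071 (95% CI -0.19 to 0.33) and Vcl by 0.13 (95% CI -0.23 to 0.48). Dsp differed by 0.080 (95% CI -0.13 to 0.29), Pkp2 by -0.038 (95% CI -0.38 to 0.30) and Dsc2 by 0.026 (95% CI -0.38 to 0.43), and limma gave adjusted p-values of 0.996 or above for all 10. With each library centred on the cardiomyocyte markers, which moved the median of all genes in this comparison from 0.0047 to -0.097, the values of Gja1, Cdh2, Dsp and Dsc2 turned negative. In this comparison 0 of the 10 genes had groups that did not overlap, against 7.88% of all genes.

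Hispidulin in sham mice gave 0 calls by limma among the 10, with 0 at an unadjusted p under 0.05, and 0% over all genes (287 at an unadjusted p under 0.05). The differences ranged from -0.20 for Pkp2 to 0.16 for Tjp1. With 1 library left out, Pkp2 ranged from -0.33 (without DMSO+Sham mouse 2) to -0.045 (without DMSO+Sham mouse 3), Tjp1 from 0.096 to 0.24 and Gja1 from -0.12 to 0.36, the latter without DMSO+Sham mouse 2. Groups that do not overlap were found for 0 of the 10, against 5.6% of all genes. The interaction of hispidulin and AB gave 0 calls among the 10 and over all genes (0%, with 289 at an unadjusted p under 0.05).

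The other genes of the junctions were followed with lists of 104 symbols, of which 100 were in the table and 68 were tested. After banding in DMSO mice 8 of the 68 were called, 7 higher and 1 lower, which is 11.8% beside 5.21% over all genes; the lists were chosen with earlier results of these data known, so the higher share is not independent of the outcome. The median difference of the 68 was 0.12, beside -0.035 over all genes. Of the 8, 5 were in the list of disc-linked muscle genes. The count leaned on single mice: it was 1 without DMSO+Sham mouse 1, 3 without DMSO+AB mouse 2 and also without DMSO+AB mouse 3, 14 without DMSO+Sham mouse 2 and 13 without DMSO+AB mouse 1. Xirp2 was called in all 25 alternatives, Des in 8, and Panx1, Csrp3, Ppl, Sorbs2 and Nrap in 17 to 21 of the 24 or 25 that gave a value.

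Of 29 disc-linked muscle genes tested, 5 rose and 0 fell, and 4 of the 5 are described here. Xirp2, an actin-binding protein of the disc, was 40.6, 36.2 and 36.9 FPKM in DMSO+Sham and 201.9, 208.0 and 117.9 FPKM in DMSO+AB mice, a difference of 2.14 (SE 0.26, limma adjusted p = 0.0038). Nrap, which binds vinculin and actin, rose from 159.7 ± 7.06 to 292.0 ± 66.8 FPKM (0.84, adjusted p = 0.0215). The adaptor Sorbs2 rose by 0.78 (adjusted p = 0.0211) and the muscle LIM protein Csrp3 by 0.60 (adjusted p = 0.0177). In each of these 4 the 3 banded mice lay above the 3 sham mice.

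Of 3 other desmosome genes tested, 1 rose and 1 fell. Desmin (Des), the filament anchored at desmosomes, rose from 1084 ± 172.5 to 1636 ± 291.1 FPKM (0.59, limma adjusted p = 0.0451). Periplakin (Ppl), a relative of desmoplakin, was 2.11, 1.42 and 2.28 FPKM in DMSO+Sham and 1.03, 0.450 and 0.420 FPKM in DMSO+AB mice, and fell by 0.85 on the log2 scale (adjusted p = 0.0199). Both moved without overlap, and Ppl was low throughout.

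Among 4 other connexin and pannexin genes tested, 1 rose. Pannexin 1 (Panx1), a membrane channel of the pannexin family, was 0.590, 1.03 and 1.19 FPKM in DMSO+Sham and 2.41, 6.28 and 3.82 FPKM in DMSO+AB mice (1.36, SE 0.22, limma adjusted p = 0.0106). The other connexins above 1 FPKM did not pass: Gjc1 (connexin 45) ranged from 9.63 to 13.4 FPKM over the 12 mice, Gja4 (connexin 37, of endothelium) from 7.43 to 10.8 FPKM and Gja3 (connexin 46) from 3.77 to 8.27 FPKM. Each was thus higher than Gja5 and lower than Gja1 in level per length. The differences after banding with DMSO were 0.14 for Gjc1, 0.079 for Gja4 and -0.20 for Gja3. Of 20 other adherens junction and catenin genes and 12 tight junction and ZO partner genes tested, 0 were called by limma, with 4 and 1 at an unadjusted p under 0.05, beside 20.4% of all genes.

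**Figure D4:**
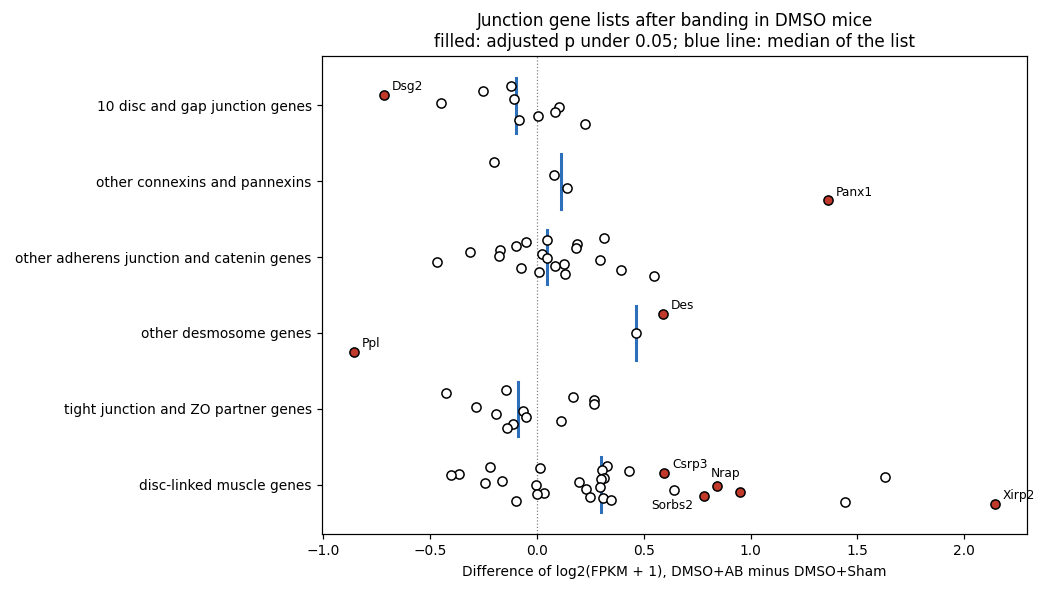
Difference of log2(FPKM + 1) between DMSO+AB and DMSO+Sham (x axis) for the 10 genes and 5 lists of other junction genes (y axis), 1 point per gene tested with points spread vertically for legibility; filled points have an adjusted p under 0.05 and the blue line is the median of the list. The filled points of the disc-linked muscle genes lie to the right, up to Xirp2 at 2.14, and Dsg2 and Ppl are the filled points to the left.

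With hispidulin in banded mice 0 of the 68 were called by limma, and 3 had an unadjusted p under 0.05, of which 2 are described here. Panx1 was 2.01, 2.24 and 2.08 FPKM in Hispidulin+AB mice, below each DMSO+AB mouse (-0.66, limma adjusted p = 0.996). The difference was -0.38 without DMSO+AB mouse 2, which was at 6.28 FPKM, and -0.93 without DMSO+AB mouse 1. Ppl was 1.43, 0.900 and 1.21 FPKM (0.43, limma adjusted p = 0.996). The DMSO+AB mice again enter both these values and those of banding with DMSO.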

How the data were processed

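Left ventricular RNA was sequenced with single-end reads of 50 bases on a BGISEQ-500. The authors deposited FPKM per gene, rounded to 0.01, without pooling of mice. The submitters' processing notes name HISAT2 2.0.4, Bowtie2 2.2.5, RSEM 1.2.12 and DESeq2 1.4.5, without their roles; the genome build and annotation are not given in the sources used here. RSEM can split reads between overlapping genes. Groups came from the sample labels. Symbols were found for 17947 of 18079 genes in the RefSeq gene table, including all 10 members.

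FPKM were used as deposited. Genes that reached 1 FPKM in 3 or more libraries were tested in R 4.3.3 with limma 3.58.1 on log2(FPKM + 1), with 1 mean per group (8 error degrees of freedom), eBayes with a trend, two-sided, and Benjamini-Hochberg adjustment over 11664 genes. The procedure was run on simulated data with independent noise for each gene. That simulation had no effects shared by the genes of a library, so it cannot show how the calls depend on single mice. Exact permutation tests were two-sided, with 3 mice against 3. The members and lists were chosen with earlier results of these data known. Named were all 10 members and, of the other junction lists, genes called after banding with DMSO, the 3 of smallest p for hispidulin in banded mice, and connexins above 1 FPKM; 1 gene that this rule names is counted in its list and not reported here. Transcript lengths and 50-base matches came from GENCODE, promoters from RefSeq (GRCm38.p6), read with Python 3.11.15.

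Replicate numbers belong to different animals. Residuals of same-numbered libraries correlated over 0.1 in all 3 pairs for Hispidulin+AB against Hispidulin+Sham (0.147, 0.197 and 0.228) and for Hispidulin+Sham against DMSO+Sham (0.126, 0.330 and 0.232), and not for DMSO+AB against DMSO+Sham (-0.024, -0.044 and -0.198) or Hispidulin+AB against DMSO+AB (0.300, 0.176 and -0.183). The replicate number was tried as a block.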

Additional observations from a re-analysis of the deposited data

How the results depend on the processing

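Over 44 results and 1088 alternatives, 976 kept their direction and side of the threshold, 46 reversed, 66 lost a call and 0 gained one. No reversed value was called. The 44 hold no difference of Hispidulin+Sham against DMSO+Sham, and only some of the interaction and of the fit over both drug arms. In Hispidulin+Sham against DMSO+Sham, Gja1 and Gja5 each reversed in 5 alternatives. In the interaction, Gja1 reversed in 8 and Tjp1 in 10 of 24. The count of members called after banding in DMSO mice went from 1 to 0 without a filter on low values, centred on the cardiomyocyte markers, with the series of animal numbers as a covariate, without the 3 libraries high in Myl7, with only the libraries compared, and at an adjusted p of at most 0.001 with an absolute difference of at least 1. It was 0 to 1 when 1 library was left out. Over both drug arms it went from 1 to 0 without the 3 libraries high in Myl7 and at the stricter threshold, and was 0 to 1 with 1 library left out. With the replicate block Dsg2 after banding in DMSO mice stayed called (-0.72, adjusted p = 0.0422), and the block changed the call of no other of the 10. The 8 other junction genes called after banding in DMSO mice became 17 with library weights, 1 with the animal series, 2 without the 3 libraries high in Myl7 and 1 with only the libraries compared, and were 1 to 14 with 1 library left out. With hispidulin their count of 0 became 4 with library weights, 1 with the length trend removed and 1 with only the libraries compared; for Hispidulin+AB against DMSO+AB it was 0 to 1 with 1 library left out. Without a filter the adjusted p of Dsg2 was 0.0663, with the animal series 0.0909, and with only the libraries compared 0.231 at the same difference, where fewer mice give the spread.

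The reversals were of differences of up to 0.13 in size. The larger ones were Vcl for Hispidulin+AB against DMSO+AB (0.13) and Cdh2 after banding with DMSO (-0.12). The median absolute difference over all genes was 0.10 and 0.17 in these comparisons. After banding with DMSO, Pkp2 was -0.052 with quantile normalization, -0.050 with the animal series and -0.050 without the 3 libraries high in Myl7; with 1 library left out Pkp2 ranged from -0.12 to 0.16, Cdh2 from -0.21 to 0.010, Jup from -0.069 to 0.19 and Tjp1 from -0.16 to 0.012. After banding with hispidulin, Cdh2 and Dsp were -0.019 and -0.022 with quantile normalization, and Cdh2, Dsp and Jup were -0.024, -0.0043 and -0.0072 with library weights; Dsp and Jup were -0.026 and -0.011 without the 3 libraries high in Myl7. With 1 library left out Gja5 ranged from -0.019 to 0.23, Cdh2 from -0.047 to 0.060, Dsp from -0.011 to 0.12 and Jup from -0.026 to 0.12. For Hispidulin+AB against DMSO+AB, centring on the cardiomyocyte markers gave -0.077 for Gja1, -0.030 for Cdh2, -0.022 for Dsp and -0.075 for Dsc2. Library weights gave -0.14 for Gja1 and -0.074 for Dsc2, and quantile normalization 0.0024 for Pkp2. Without the 3 libraries high in Myl7, Gja5 was 0.012, Vcl -0.099 and Pkp2 0.033. With 1 library left out Gja1 ranged from -0.14 to 0.24, Gja5 from -0.037 to 0.046, Cdh2 from -7.8e-05 to 0.13, Pkp2 from -0.14 to 0.043 and Dsc2 from -0.16 to 0.18. The differences of Gja1, Vcl and Dsc2 after banding kept their direction in all alternatives, but their size moved with single mice as given beside them, and that of Gja1 with DMSO went to -0.072 with library weights (-0.28 over both drug arms). Split by the series of animal numbers, direction was not kept throughout. Dsc2 with DMSO was -0.89 in series 5 (1 mouse against 1) and 0.13 in series 6 (2 against 1). Vcl with hispidulin was 0.51 in series 5 (1 against 2) and -0.11 in series 6 (2 against 1). The other differences of Gja1, Vcl and Dsc2 after banding kept their sign in both series. With 0.1 added in place of 1, Ppl was -1.54 after banding with DMSO and 0.88 for Hispidulin+AB against DMSO+AB. With 1 library left out, Gja5 and Dsp after banding with DMSO ranged from 0.036 to 0.18 and from -0.16 to -0.057, and Pkp2 and Tjp1 after banding with hispidulin from 0.066 to 0.24 and from -0.17 to -0.014. Over all alternatives, Gja5 and Dsp after banding with DMSO ranged from 0.025 to 0.21 and from -0.16 to -0.0076. For Hispidulin+AB against DMSO+AB, Dsg2 ranged from 0.25 to 0.68, Vcl from 0.0053 to 0.32, Jup from -0.30 to -0.040 and Tjp1 from 0.070 to 0.24. The cause of these changes was not tested. The added alternatives, chosen after seeing the data, were the fit over both drug arms, the removal of the length trend and all those of the other junction genes. The depth is unknown.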

Other observations

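When all 6 banded mice were compared with all 6 sham mice, 16 of the 68 other junction genes were called by limma, 13 higher and 3 lower, which is 23.5% beside 7.39% of all genes, in lists that were chosen with earlier results of these data known. No fit that leaves libraries out is given for these 16 genes. Over all genes the calls fell from 862 to 74 without the 3 libraries highest in Myl7, and to 376 without Hispidulin+AB mouse 3. The genes named here were chosen after their values were seen. Beside those called in DMSO mice alone, the higher ones included the actin-binding genes Xirp1 (1.48, adjusted p = 0.0381) and Flnc (1.52, adjusted p = 0.0204), the Z-disc protein alpha-actinin 2 (Actn2, 0.29, adjusted p = 0.0194), Popdc3 (0.60, adjusted p = 0.0206), caveolin 3 (Cav3, 0.39, adjusted p = 0.0222) and the desmosomal protein Perp (0.38, adjusted p = 0.0308). Beside Ppl, the lower ones were the adhesion protein Nectin2, which went from 16.5 ± 2.45 to 12.1 ± 1.15 FPKM (n = 6 each, limma adjusted p = 0.0314), and the sodium channel modulator Fgf13, which differed by -0.38 (adjusted p = 0.0372).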
